A study of Mus musculus with 12 samples.

Results

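NRF2, encoded by *Nfe2l2*, is the transcription factor that switches on antioxidant and detoxification genes, and the set described here is *Nfe2l2* itself with 7 of its well-known targets, *Osgin1*, *Srxn1*, *Txnrd1*, *Gclc*, *Gclm*, *Nqo1* and *Hmox1*. The 8 genes were taken by symbol from the deposited tables, which list 22273 genes for gastrocnemius and 22252 each for liver and gonadal white adipose tissue (WAT). They were chosen by name with earlier results of these data known, and *Osgin1* was selected on its measured changes with CORT (corticosterone) to lead the set. The levels and changes below come from those same libraries, so they describe the genes and test nothing. All 8 were above 0 in every library, and the table of each tissue kept the same transcript for each of them.

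The study asked how the glucocorticoid receptor (GR, gene *Nr3c1*) of skeletal muscle shapes the response of muscle, liver and fat to an excess of CORT. Male C57BL/6J mice carried floxed *Nr3c1* alleles in all groups, without Cre (GRf/f) or with Acta1-Cre, which is active in myofibres from development on (GRmKO). From 8 weeks of age they drank CORT at 100 µg/mL in 1% ethanol, or 1% ethanol alone (vehicle), for 4 weeks. RNA from gastrocnemius, liver and gonadal WAT was sequenced as 1 library per tissue, genotype and treatment, each a pool of RNA from 3 mice, giving 12 libraries and no replicates. No test was therefore possible. The sources used here do not say whether a mouse gave RNA to the pools of more than 1 tissue.

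Levels are given as counts scaled to a common library total (CPM), with a 95% Wilson interval in parentheses. Changes are log2 ratios of 2 libraries after 0.5 CPM was added to each, with a 95% Clopper-Pearson interval of the ratio in parentheses, computed without that addition. These intervals cover counting error only, and not the spread between mice or pools. A change of at least 2-fold, that is a log2 change of at least 1 in either direction, is called a rise or a fall, and the share of all tested genes past that size is given beside the counts. The genes tested were those above 0 in all 4 libraries of a tissue, numbering 13543 for gastrocnemius, 12485 for liver and 14218 for gonadal WAT. The 4 comparisons of a tissue share libraries, so they are not independent of each other.

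NRF2 is held at a low level by KEAP1, which hands it to a ubiquitin ligase for degradation. When oxidants or electrophiles modify KEAP1, NRF2 escapes, pairs with a small MAF protein and binds antioxidant response elements near its targets. Control is largely at the protein level, so the *Nfe2l2* transcript is not a measure of NRF2 activity. Among the targets, *Osgin1* encodes an oxidative stress induced growth inhibitor, *Srxn1* encodes sulfiredoxin, which restores over-oxidised peroxiredoxins, and *Txnrd1* encodes the cytosolic thioredoxin reductase. *Gclc* and *Gclm* encode the catalytic and modifier subunits of the rate-limiting enzyme of glutathione synthesis, *Nqo1* encodes a quinone reductase, and *Hmox1* encodes haem oxygenase 1, which breaks down haem and is also abundant in macrophages that clear red cells.

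The libraries held 19394572 to 20940660 expected counts, at which 3 counts correspond to 0.143 to 0.155 CPM. *Nr3c1*, the deleted gene, stood in gastrocnemius at 113 CPM (GRf/f vehicle), 90.4 CPM (GRf/f CORT), 46.4 CPM (GRmKO vehicle) and 35.5 CPM (GRmKO CORT), and its log2 difference between genotypes was -1.27 under vehicle and -1.34 under CORT. In liver and gonadal WAT that difference lay between -0.29 and 0.13. Counts of the remaining exons, and of cells other than myofibres, are included in the muscle values. Tissue markers were high where the labels place them: 6 myofibre genes summed to 83161 to 112800 CPM in gastrocnemius, 7 hepatocyte genes to 85119 to 145917 CPM in liver, and 6 adipocyte genes to 22508 to 28803 CPM in gonadal WAT, where 5 epididymis genes summed to at most 1.1 CPM. The vehicle-treated GRmKO gastrocnemius library stood apart in macrophage markers, whose 6 genes summed to 416 CPM against 122 to 165 CPM in the other 3. In bulk tissue, fewer cells of a type and less RNA per cell cannot be told apart.

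The start regions of the genes are shown first, because 5 of the 6 members with an entry in the promoter table hold the core of an antioxidant response element or of the closely related AP-1/Maf element there. Sequences are those of RefSeq on GRCm38.p6, read 5′ to 3′ on the strand of the gene, in windows from 250 bases before to 50 after the annotated start. They were searched on both strands for TGACNNNGC, the core of the antioxidant response element, and for TGACTCA, the AP-1/Maf core. The first was present in 12.4% and the second in 5.2% of 32851 promoters of the same length. The share of promoters with either core was not computed, so the 5 of 6 has no matching background. *Gclc* and *Hmox1* had no entry. The matches within the printed bases are in capitals below, and in *Srxn1*, *Gclm* and *Txnrd1* they are written as the reverse complement. For *Osgin1* and *Srxn1*, the pair that rose with CORT in muscle of GRf/f mice, the whole stretch before the start is given, and for the others 29 bases around the match.
Osgin1 (chr8:119436897-119437117, plus strand): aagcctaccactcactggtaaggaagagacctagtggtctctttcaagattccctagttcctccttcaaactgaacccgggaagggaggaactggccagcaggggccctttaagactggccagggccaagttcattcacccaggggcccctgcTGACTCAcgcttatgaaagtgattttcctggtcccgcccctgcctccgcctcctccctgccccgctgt
Srxn1 (chr2:152105274-152105523, plus strand): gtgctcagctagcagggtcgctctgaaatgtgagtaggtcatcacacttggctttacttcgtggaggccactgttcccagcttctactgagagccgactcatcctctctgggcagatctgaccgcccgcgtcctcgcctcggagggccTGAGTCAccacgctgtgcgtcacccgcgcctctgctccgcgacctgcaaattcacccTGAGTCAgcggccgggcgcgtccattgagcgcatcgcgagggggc
Gclm (chr3:122245413-122245441, plus strand): gctcccgggcGCACCGTCAactctcacga
Txnrd1 (chr10:82859104-82859132, plus strand): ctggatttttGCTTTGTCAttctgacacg
Nfe2l2 (chr2:75704885-75704913, minus strand): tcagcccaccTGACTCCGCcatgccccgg

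In *Osgin1* the TGACTCA core begins 97 bases before the RefSeq start and 68 before the start of the transcript that was counted. *Srxn1* holds that core at 102 and again at 45 bases before its start. It also holds a TGACNNNGC core at position 29, with the start base itself counted, beyond the printed stretch. The TGACNNNGC core lies 134 bases before the start in *Gclm*, 92 in *Txnrd1* and 240 in *Nfe2l2*. *Txnrd1* has 3 start windows in the table, of which the one with the start of the counted transcript held the match and the other 2 held neither core. *Nqo1* held neither core in its window. The palindromic glucocorticoid response element, AGAACA and TGTTCT with any 3 bases between them, was found in 3 of the 32851 windows (0.00913%) and in none of the 6 members. A match describes the letters of a window and not the binding of a factor, and windows without a match leave more distant sites unexamined. The full palindrome is so rare that its absence from the members was likely beforehand, and looser forms of it were not searched.

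*Osgin1* (ENSMUSG00000074063, counted as ENSMUST00000152420, 6 exons, gene at chr8:119434124-119446256 on the plus strand of GRCm38) rose with CORT in gastrocnemius of GRf/f mice and fell with CORT in gastrocnemius of GRmKO mice. It stood at 17.9 CPM (16.2 to 19.9) in GRf/f vehicle, 39.6 CPM (36.9 to 42.5) in GRf/f CORT, 23.0 CPM (21 to 25.2) in GRmKO vehicle and 9.11 CPM (7.87 to 10.5) in GRmKO CORT. The CORT-treated libraries were thus the highest and the lowest of the 4, with the vehicle libraries between them. The log2 change with CORT was 1.12 (0.96 to 1.33) in GRf/f and -1.29 (-1.59 to -1.09) in GRmKO mice. GRmKO differed from GRf/f by 0.35 (0.15 to 0.56) under vehicle and by -2.06 (-2.36 to -1.89) under CORT, where the GRmKO level was 0.23 times that of GRf/f.

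*Osgin1* at 9.11 CPM in GRmKO CORT gastrocnemius lay below the 17.9 CPM of GRf/f vehicle, with intervals that did not overlap. Between the CORT-treated gastrocnemius libraries, hepatocyte markers were 30.2 times as high in GRmKO as in GRf/f, with 6 of 6 tested genes past 2-fold. Erythroid markers were 3.2 times as high (5 of 5) and macrophage markers 1.35 times (none of 6). Myofibre markers were 1.08 times, endothelial markers 0.851 times and adipocyte markers 0.773 times as high. Macrophage markers summed to 122 CPM in both GRf/f gastrocnemius libraries, and fell with CORT in GRmKO mice from 416 to 165 CPM, with 5 of 6 genes past 2-fold and none at 0 in any library. The part of these cell types in the fall of *Osgin1* with CORT in GRmKO mice was not tested. Nor was their part in its difference between genotypes under CORT.

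In liver *Osgin1* rose with CORT in GRf/f mice and was also higher with CORT in GRmKO mice, just short of 2-fold. The levels were 47.5 CPM (44.6 to 50.5) in GRf/f vehicle, 143 CPM (138 to 148) in GRf/f CORT, 70.9 CPM (67.4 to 74.6) in GRmKO vehicle and 139 CPM (134 to 145) in GRmKO CORT. Both CORT-treated libraries lay above both vehicle libraries. The intervals of the CORT-treated pair overlapped, and those of the vehicle pair did not. The log2 changes with CORT were 1.58 (1.48 to 1.69) and 0.97 (0.88 to 1.07), and the differences between genotypes were 0.57 (0.46 to 0.70) under vehicle and -0.03 (-0.11 to 0.04) under CORT.

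In gonadal WAT *Osgin1* rose with CORT in both genotypes, and the CORT level of GRmKO mice was 0.439 times that of GRf/f mice. It stood at 4.86 CPM (3.98 to 5.93) in GRf/f vehicle, 53.0 CPM (49.9 to 56.3) in GRf/f CORT, 8.71 CPM (7.50 to 10.1) in GRmKO vehicle and 23.3 CPM (21.3 to 25.5) in GRmKO CORT. No intervals of the 4 libraries overlapped. The log2 changes with CORT were 3.32 (3.15 to 3.76), a ratio of 10.9, and 1.37 (1.16 to 1.68), a ratio of 2.67. GRmKO differed from GRf/f by 0.78 (0.47 to 1.22) under vehicle and by -1.17 (-1.35 to -1.03) under CORT.

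Across the 12 libraries *Osgin1* was highest in the CORT-treated livers and lowest in the vehicle-treated WAT of GRf/f mice. In the order of the levels, 4 pairs of neighbours had overlapping intervals: the CORT-treated livers of both genotypes, GRf/f CORT WAT with GRf/f vehicle liver, GRmKO CORT WAT with GRmKO vehicle gastrocnemius, and GRmKO CORT gastrocnemius with GRmKO vehicle WAT. In each tissue the vehicle-treated GRmKO library was above the vehicle-treated GRf/f library.

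**Figure D1:**
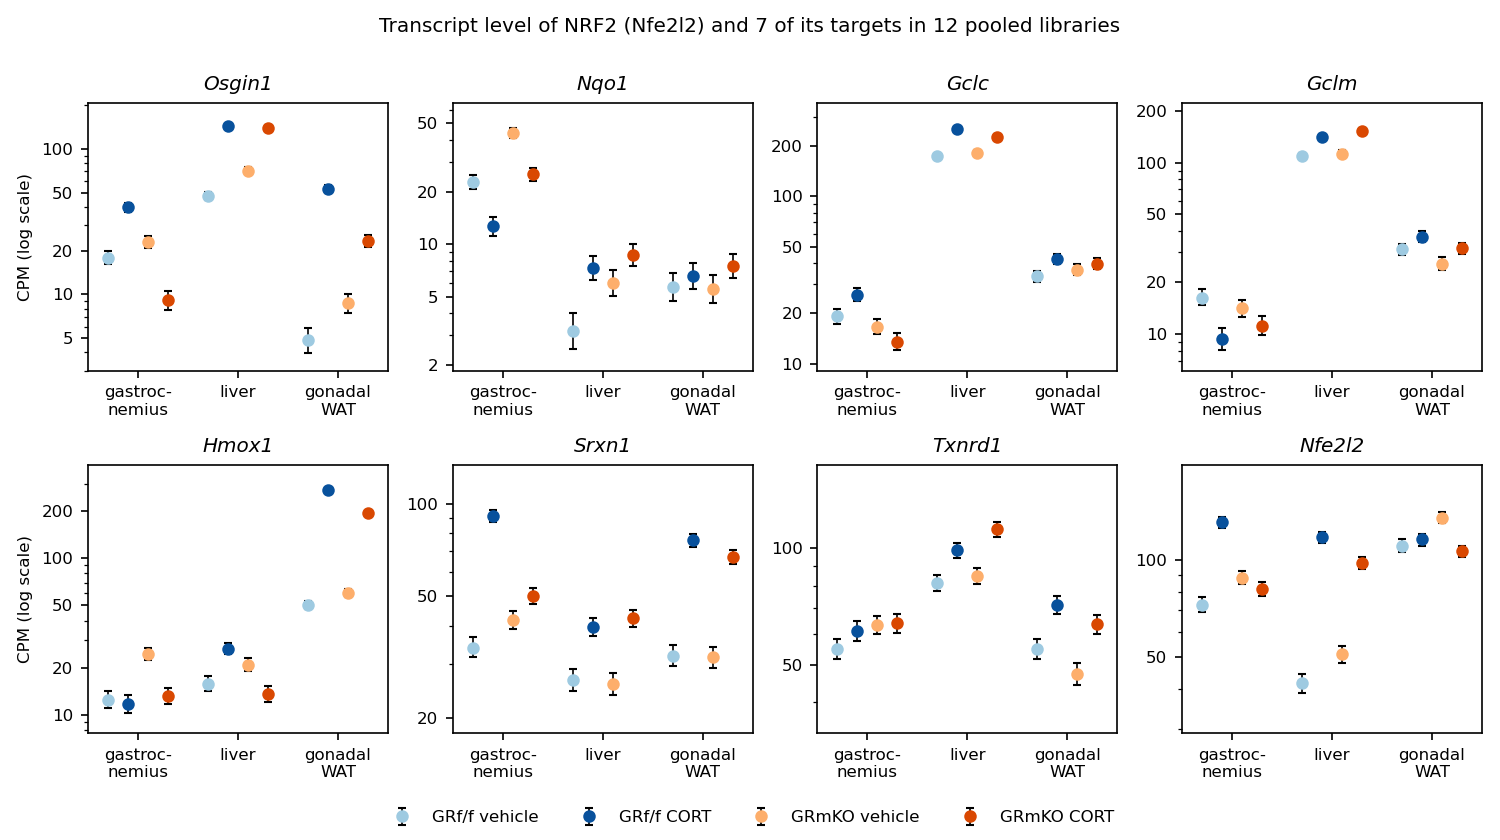
Level of each gene in CPM (vertical axis, log scale) in the 12 pooled libraries, by tissue (horizontal axis) and by genotype and treatment (colour), with bars for the 95% counting interval. *Osgin1* in gastrocnemius runs from 9.11 CPM in GRmKO CORT to 39.6 CPM in GRf/f CORT, whereas *Gclc* and *Gclm* differ mainly between liver and the other tissues.

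*Srxn1* (ENSMUSG00000032802, chr2:152105516-152111376, plus strand) was the other member that rose in muscle. In gastrocnemius it stood at 33.9, 91.2, 41.6 and 49.9 CPM in GRf/f vehicle, GRf/f CORT, GRmKO vehicle and GRmKO CORT, the order used for all levels below. The GRf/f CORT library was well above the other 3. The log2 change with CORT was 1.41 (1.30 to 1.56) in GRf/f and 0.26 (0.13 to 0.40) in GRmKO mice, and under CORT GRmKO differed from GRf/f by -0.86 (-0.98 to -0.76), short of 2-fold. In gonadal WAT it rose in both genotypes, at 31.9, 75.8, 31.5 and 66.8 CPM, with log2 changes of 1.24 (1.11 to 1.38) and 1.07 (0.95 to 1.22). In liver it stood at 26.6, 39.7, 25.8 and 42.2 CPM, with changes of 0.57 (0.42 to 0.74) and 0.70 (0.55 to 0.87).

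*Txnrd1* (ENSMUSG00000020250, chr10:82833951-82897712, plus strand), which feeds electrons to thioredoxin, stayed furthest from 2-fold with CORT, in that the largest of its 6 changes, 0.42, was smaller than the largest of any other member. It ranged from 54.8 to 63.9 CPM in gastrocnemius, from 81.4 to 112 CPM in liver and from 47.3 to 71.2 CPM in gonadal WAT. Its 6 log2 changes with CORT lay between 0.01 and 0.42, and none reached 2-fold.

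*Nfe2l2* (ENSMUSG00000015839, chr2:75675513-75704641, minus strand), the transcript of the factor itself, rose with CORT in liver of GRf/f mice. Liver levels were 41.6, 118, 51.2 and 98.1 CPM, with log2 changes with CORT of 1.49 (1.39 to 1.61) in GRf/f and 0.93 (0.83 to 1.05) in GRmKO mice. In gastrocnemius it stood at 72.9, 131, 88.4 and 81.4 CPM. The GRf/f CORT library was again the highest, with a change of 0.84 (0.75 to 0.94), short of 2-fold, against -0.12 (-0.22 to -0.02) in GRmKO mice, and the latter became 0.03 with TMM and 0.02 with median-of-ratios scaling. In gonadal WAT, where *Osgin1*, *Hmox1* and *Srxn1* rose, *Nfe2l2* stood at 111, 116, 135 and 107 CPM, with changes of 0.06 (-0.02 to 0.15) and -0.34 (-0.42 to -0.26).

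*Hmox1* (ENSMUSG00000005413, chr8:75093621-75100589, plus strand) rose with CORT in gonadal WAT of both genotypes. Its levels there were 50.1, 274, 60.2 and 195 CPM, and both CORT-treated libraries were far above the vehicle libraries. The log2 changes were 2.44 (2.36 to 2.55) and 1.69 (1.60 to 1.79), and GRmKO differed from GRf/f by -0.49 (-0.55 to -0.43) under CORT. The 6 macrophage genes summed to 791, 1902, 999 and 1888 CPM in the same libraries, 2.41 and 1.89 times higher with CORT, with 4 of 6 past 2-fold in GRf/f and 1 of 6 in GRmKO mice. None of the 6 was at 0 in any library. Endothelial markers, at 592, 222, 550 and 297 CPM, were lower with CORT. B cell markers were 0.139 times as high with CORT in GRf/f and 0.24 times in GRmKO mice, with 4 of 4 genes past 2-fold in each. Erythroid markers were 0.493 times as high in GRf/f (3 of 5 past 2-fold) and 1.28 times in GRmKO mice (none of 5). The part of these cell types in the rises of *Hmox1*, *Osgin1* and *Srxn1* in WAT was not tested. Between the CORT-treated WAT libraries, where *Osgin1* differed by -1.17, macrophage markers were 0.993 and adipocyte markers 0.974 times as high in GRmKO as in GRf/f. Erythroid markers were 2.63 times as high, with 5 of 5 genes past 2-fold, B cell markers 2.62 times (1 of 4), hepatocyte markers 1.76 times (3 of 7) and endothelial markers 1.34 times (none of 4). The part of these cell types in the *Osgin1* difference was not tested.

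In liver *Hmox1* stood at 15.7, 26.5, 20.9 and 13.6 CPM, so that GRf/f CORT was the highest and GRmKO CORT the lowest library. The log2 change with CORT was 0.73 (0.55 to 0.95) in GRf/f and -0.60 (-0.84 to -0.40) in GRmKO mice, and under CORT GRmKO differed from GRf/f by -0.94 (-1.18 to -0.75), which passed 2-fold with TMM and with median-of-ratios scaling. Macrophage markers in liver summed to 135, 37.3, 104 and 59.2 CPM and erythroid markers to 1020, 446, 663 and 1120 CPM. Macrophage markers were thus lower with CORT in both genotypes, while erythroid markers were lower in GRf/f and higher in GRmKO mice, and their part in the *Hmox1* values was not tested. In gastrocnemius *Hmox1* stood at 12.5, 11.7, 24.6 and 13.2 CPM, with the GRmKO vehicle library, the one with high macrophage markers, above the other 3. GRmKO differed there from GRf/f by 0.95 (0.75 to 1.2) under vehicle and by 0.17 (-0.08 to 0.44) under CORT.

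*Nqo1* (ENSMUSG00000003849, chr8:107388225-107403206, minus strand) differed in direction between muscle and liver. In gastrocnemius it stood at 23.0, 12.7, 44.0 and 25.4 CPM, lower with CORT in each genotype by close to the same amount, with log2 changes of -0.83 (-1.08 to -0.63) and -0.78 (-0.95 to -0.63). It was higher in GRmKO than in GRf/f gastrocnemius, by 0.92 (0.77 to 1.10) under vehicle and 0.97 (0.78 to 1.22) under CORT, neither past 2-fold. In liver *Nqo1* rose with CORT in GRf/f mice, at 3.15, 7.28, 6.00 and 8.71 CPM, with changes of 1.09 (0.78 to 1.65) and 0.50 (0.20 to 0.88). The 3.15 CPM of GRf/f vehicle was its lowest level in any library, and the interval of the GRf/f change extends below 2-fold. With a pseudocount of 1 CPM the GRf/f change no longer reached 2-fold. In gonadal WAT it stood at 5.66, 6.58, 5.52 and 7.48 CPM.

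*Gclc* (ENSMUSG00000032350, chr9:77754535-77794485, plus strand) and *Gclm* (ENSMUSG00000028124, chr3:122245557-122270732, plus strand) did not reach 2-fold in any comparison. In gastrocnemius *Gclc* stood at 19.2, 25.9, 16.7 and 13.6 CPM, with the CORT-treated libraries again highest and lowest as for *Osgin1*, and GRmKO differed from GRf/f by -0.90 (-1.15 to -0.72) under CORT. *Gclm* stood there at 16.3, 9.41, 14.1 and 11.2 CPM, lower with CORT in both genotypes. The log2 changes of the subunits in GRf/f muscle lay on opposite sides of 0, at 0.43 (0.24 to 0.63) for *Gclc* and -0.77 (-1.07 to -0.53) for *Gclm*. In liver both were higher with CORT in each genotype, at 174, 252, 183 and 228 CPM for *Gclc* and 109, 142, 113 and 154 CPM for *Gclm*, with changes of 0.32 to 0.53. In gonadal WAT the levels were 33.4 to 42.3 CPM for *Gclc* and 25.7 to 37.0 CPM for *Gclm*, and the changes lay between 0.12 and 0.34.

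To compare levels between genes, CPM was divided by the length of the counted transcript. Whether the counts had been summed over several transcripts of a gene was not settled, so the ranks depend on that choice of length. In gastrocnemius *Nfe2l2* was the highest of the 8 in every library, at 29.5 to 53.0 CPM per kilobase, and *Gclm* the lowest, at 1.68 to 2.92. In liver *Gclc* ranked 1 or 2, at 50.7 to 73.5 CPM per kilobase, *Osgin1* ranked between 1 and 3, at 23.7 to 71.1, and *Nqo1* was the lowest, at 2.03 to 5.61. In gonadal WAT *Hmox1*, at 31.9 to 175, and *Nfe2l2*, at 43.2 to 54.7, were the highest pair. *Osgin1* covered the widest span of ranks there, from the eighth place to the fourth, at 2.42 to 26.4 CPM per kilobase.

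Taking the 8 genes by comparison, in gastrocnemius of GRf/f mice 2 rose with CORT (*Osgin1* and *Srxn1*) and none fell, where 3.26% of all tested genes rose and 4.72% fell. Their median log2 change was 0.29 against -0.08 over all genes. In gastrocnemius of GRmKO mice none rose and 1 fell (*Osgin1*), where 1.51% of all genes rose and 5.02% fell, and the median was -0.30 against -0.10. In liver of GRf/f mice 3 rose (*Osgin1*, *Nfe2l2* and *Nqo1*) and none fell, where 5.9% rose and 5.72% fell, and all 8 had a log2 change above 0, with a median of 0.65 against 0.00. In liver of GRmKO mice none reached 2-fold, where 2.8% rose and 2.82% fell, and 7 of 8 lay above 0, with a median of 0.47 against 0.05. In gonadal WAT 3 rose in each genotype (*Osgin1*, *Hmox1* and *Srxn1*) and none fell. The shares over all genes were 5.49% higher and 8.07% lower in GRf/f, and 3.47% higher and 5.63% lower in GRmKO mice, and the medians of the 8 were 0.35 and 0.41 against -0.07 and -0.12. The balance of rises and falls over all genes depended on the scaling between libraries. With median-of-ratios in place of the library total, 544 genes rose and 518 fell with CORT in GRf/f gastrocnemius, against 441 and 639. With TMM the numbers for GRmKO mice were 261 and 496 against 205 and 680 in gastrocnemius, and 645 and 597 against 494 and 800 in gonadal WAT. In GRmKO mice the median of all genes shifted with it, upward by 0.13 in gastrocnemius and by 0.12 in gonadal WAT. The counts of members with CORT were the same under each scaling.

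**Figure D2:**
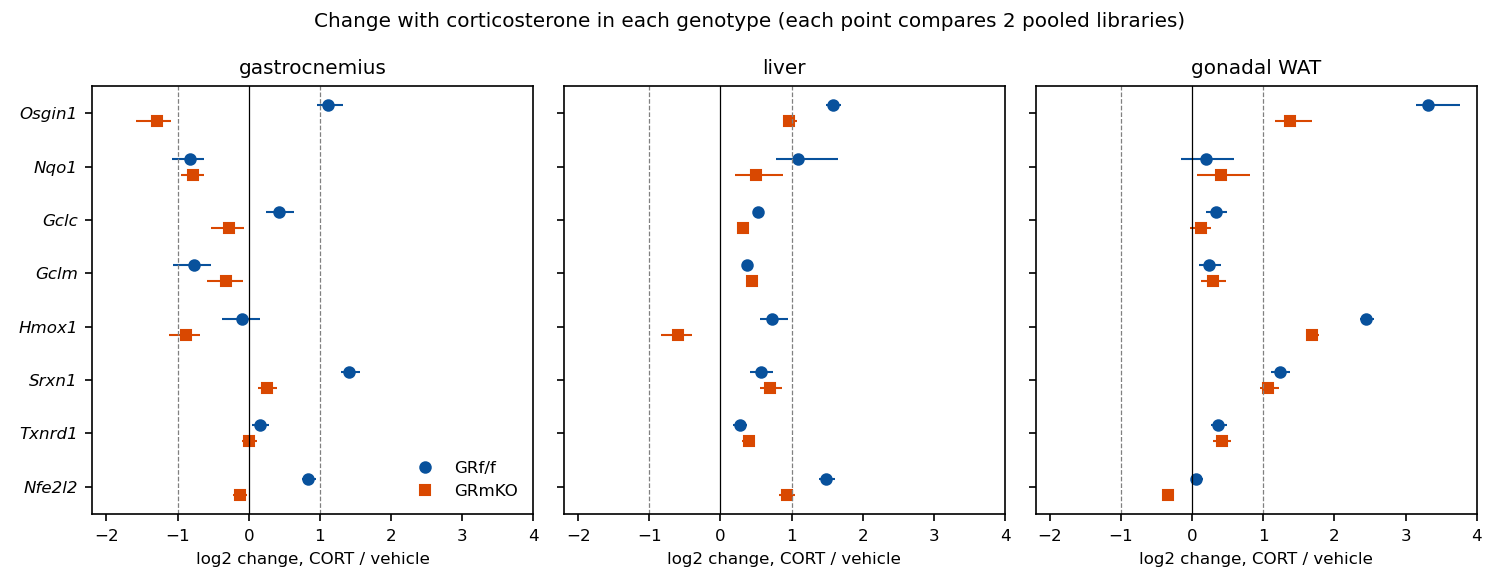
Log2 change with CORT (horizontal axis) of each gene in GRf/f (circles) and GRmKO mice (squares), with 95% counting intervals as lines and 2-fold marked by dashed lines. In gastrocnemius *Osgin1* lies at 1.12 and -1.29 on opposite sides of 0, and in gonadal WAT at 3.32 and 1.37 on the same side.

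Between genotypes, none of the 8 differed by 2-fold under vehicle in any tissue, where 7.77% of all genes did so for gastrocnemius, 2.3% for liver and 2.22% for gonadal WAT. Under CORT *Osgin1* alone of the 8 was past 2-fold, lower in GRmKO mice, in gastrocnemius (9.71% of all genes in either direction) and in gonadal WAT (2.62%), and none was in liver (4.72%). The median log2 difference of the 8 under CORT was -0.31 for gastrocnemius, 0.03 for liver and -0.17 for gonadal WAT, against 0.02, 0.07 and -0.03 over all genes. These values rest on the same 4 libraries per tissue as the changes with CORT.

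The difference between the change with CORT in GRmKO and in GRf/f mice was then taken for each gene, a value that is the same as the difference between the genotype effects under CORT and under vehicle. In gastrocnemius it reached 2-fold for *Osgin1* (-2.41) and *Srxn1* (-1.15), where 10.4% of all genes did, and in gonadal WAT for *Osgin1* (-1.95), where 7.15% did. In liver it did so for *Hmox1* (-1.33), where 9.89% did. In gastrocnemius 45 of 13543 genes (0.332%) differed by at least as much as *Osgin1* in the same direction, in gonadal WAT 66 of 14218 (0.464%), and in liver 11.7% did. Next after these in gastrocnemius were *Nfe2l2* (-0.96), *Hmox1* (-0.78) and *Gclc* (-0.71), whereas *Nqo1* (0.05) and *Txnrd1* (-0.15) lay near 0. *Gclm* went the other way, at 0.45, where 16.2% of all genes differed by at least as much in that direction. *Osgin1* was singled out for this contrast, so its place among all genes is a description.

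**Figure D3:**
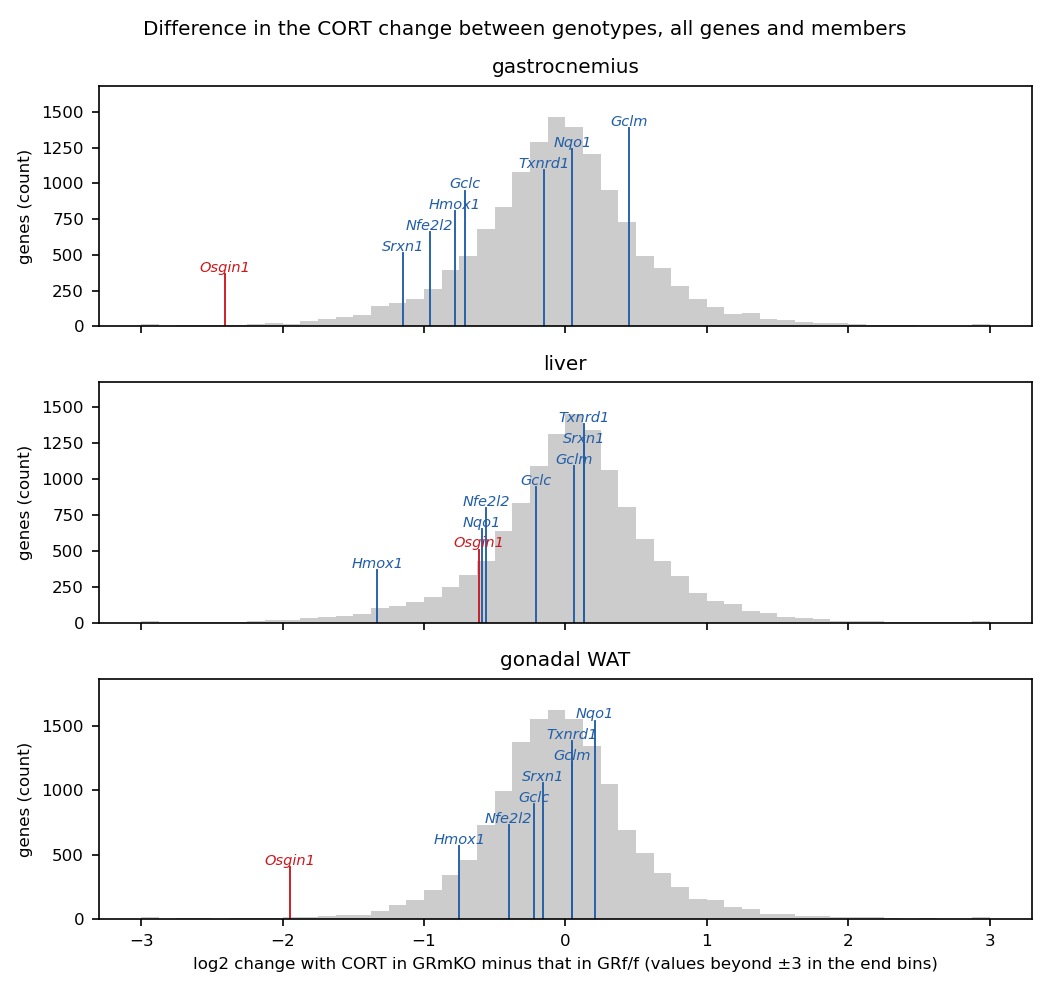
Number of genes (vertical axis) by the difference between the log2 change with CORT in GRmKO and in GRf/f mice (horizontal axis), in each tissue, with lines for the 8 members at heights that carry no value. *Osgin1* lies at -2.41 in gastrocnemius and -1.95 in gonadal WAT, in the left tail, and at -0.61 in liver.

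Markers of other cell types were also counted in muscle. Adipocyte markers in gastrocnemius summed to 232, 589, 333 and 455 CPM, and none of the 6 was at 0 except *Cidec* in GRmKO vehicle. With CORT 4 of 5 tested genes rose and 1 fell in GRf/f mice, and 3 rose and none fell in GRmKO mice. *Cfd* was lower with CORT in both genotypes, at 53.4, 22.6, 48.8 and 29.6 CPM. The 589 CPM of GRf/f CORT was 2.55% of the level in WAT of the same group, and that share of the WAT value would bring 1.35 CPM of *Osgin1* against the 39.6 CPM measured, 1.93 CPM of *Srxn1* against 91.2, and 7.0 CPM of *Hmox1* against 11.7. Hepatocyte markers in gastrocnemius summed to 6.5, 9.18, 85.5 and 277 CPM, with *Apoa2* at 0 in both GRf/f libraries. The 277 CPM of GRmKO CORT was 0.19% of the liver level, and that share of the liver value would bring 0.265 CPM of *Osgin1* against the 9.11 CPM measured. Erythroid markers in gastrocnemius summed to 799, 774, 1332 and 2477 CPM. This arithmetic takes such cells in muscle to hold each gene at its level in whole WAT or liver, which was not tested. It also takes the share from the summed markers, from which single markers can differ. The part of these cell types in the muscle values was not tested.

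The genes whose pattern was most like that of *Osgin1* were sought among 6062 genes by the correlation of log2 levels over the 12 libraries, centred within each tissue. The libraries of a tissue share their tissue mean, and so the values are a description. The highest Pearson r was that of *Cc2d1b* (0.954), followed by *Copg1* (0.938), *Man2a1* (0.932), *Tsr1* (0.930) and *Nus1* (0.929). Their changes with CORT were smaller than those of *Osgin1*. With CORT in gastrocnemius *Cc2d1b* had a log2 change of 0.21 in GRf/f and -0.20 in GRmKO mice, and *Nus1* 0.13 and -0.06. Among the members r with *Osgin1* was 0.815 for *Srxn1*, 0.778 for *Gclc*, 0.712 for *Hmox1*, 0.699 for *Txnrd1*, 0.482 for *Nfe2l2*, 0.361 for *Gclm* and 0.204 for *Nqo1*. *Srxn1* stood at rank 101 of the 6062 genes and *Nqo1* at rank 2185.

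A further 51 genes of the same pathway, in 7 lists, were measured beside the members, of which 47 were tested in gastrocnemius and 49 each in liver and gonadal WAT. In gastrocnemius 3 rose and none fell with CORT in GRf/f mice, where 3.26% of all genes rose and 4.72% fell, and 2 rose and none fell in GRmKO mice, where 1.51% rose and 5.02% fell. In liver 4 rose and 2 fell in GRf/f mice (5.9% and 5.72% of all genes), and 4 rose and none fell in GRmKO mice (2.8% and 2.82%). In gonadal WAT 6 rose and 2 fell in GRf/f mice (5.49% and 8.07%), and 7 rose and none fell in GRmKO mice (3.47% and 5.63%). The medians over the tested genes of the lists, GRf/f first, were 0.06 and 0.03 in gastrocnemius, 0.17 and 0.13 in liver, and 0.08 and 0.12 in gonadal WAT. Over all genes they were -0.08 and -0.10, 0.00 and 0.05, and -0.07 and -0.12. Under vehicle 3 were higher in GRmKO than in GRf/f gastrocnemius and 1 in gonadal WAT, where 7.77% and 2.22% of all genes differed in either direction. Under CORT 4 were higher in gastrocnemius and 3 in liver, where 9.71% and 4.72% differed in either direction. None was lower by 2-fold in GRmKO mice in any tissue. These shares join both directions, so they are not a like measure for counts in 1 direction.

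Among the 9 regulators, *Nfe2l1*, which encodes an NRF2 relative that drives proteasome genes, rose with CORT in gastrocnemius of GRf/f mice from 130 to 321 CPM, a log2 change of 1.30, and stood at 213 and 305 CPM in GRmKO mice (0.51). In gonadal WAT it rose from 182 to 419 CPM in GRf/f mice (1.2) and stood at 244 and 265 CPM in GRmKO mice (0.12). *Maff*, a small MAF partner, rose in gonadal WAT of both genotypes, from 2.15 to 11.6 CPM (2.19) and from 5.24 to 15.7 CPM (1.5). In gastrocnemius *Maff* rose in GRmKO mice from 5.12 to 12.6 CPM (1.22), where GRf/f mice stood at 3.78 and 7.44 CPM (0.89). In liver it was lower with CORT in GRf/f mice, at 2.8 and 1.1 CPM, and stood at 3.38 and 3.32 CPM in GRmKO mice. *Keap1*, the inhibitor, was chosen for naming after its values were seen, and did not reach 2-fold. It stood at 32.1, 33.6, 30.5 and 40.7 CPM in gastrocnemius and at 43.8, 26.6, 26.8 and 27.6 CPM in gonadal WAT, where GRf/f vehicle was the highest library.

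Among the 11 glutathione genes, *Mgst1*, a microsomal glutathione transferase, rose with CORT in gastrocnemius of GRf/f mice from 16.6 to 36.1 CPM (1.10) and stood at 28.6 and 28.3 CPM in GRmKO mice. *Gpx1*, a glutathione peroxidase, was higher in GRmKO than in GRf/f gastrocnemius under vehicle, at 44.8 against 17.7 CPM (1.32). That GRmKO library is the one with high macrophage markers. Under CORT *Gpx1* stood at 36.0 CPM in GRmKO against 23.8 CPM in GRf/f gastrocnemius, short of 2-fold. *Gsta4*, whose product conjugates lipid aldehydes to glutathione, fell with CORT in gonadal WAT of GRf/f mice from 47.8 to 19.0 CPM (-1.31) and stood at 47.3 and 24.1 CPM in GRmKO mice (-0.96), and under CORT it was higher in GRmKO than in GRf/f mice in gastrocnemius (1.23) and liver (1.22). *Glrx*, encoding glutaredoxin, rose in liver of GRf/f mice from 40.9 to 110 CPM (1.42) and stood at 46.4 and 87.0 CPM in GRmKO mice (0.90). In gonadal WAT *Glrx* stood at 13.0, 26.4, 13.2 and 28.5 CPM.

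Of the 7 thioredoxin and peroxiredoxin genes, *Prdx6* rose with CORT in gonadal WAT of both genotypes, from 343 to 1164 CPM (1.76) and from 328 to 1054 CPM (1.68). *Txnip*, which encodes an inhibitor of thioredoxin, rose in liver of GRmKO mice from 39.9 to 146 CPM (1.86) and stood at 53.1 and 88.1 CPM in GRf/f mice (0.73). In gonadal WAT *Txnip* was lower with CORT in both genotypes, at 829, 384, 945 and 562 CPM. Of the 6 genes of NADPH supply, *G6pdx*, the entry enzyme of the pentose phosphate pathway, rose in gonadal WAT of both genotypes, from 326 to 800 CPM (1.29) and from 313 to 754 CPM (1.27). In gastrocnemius *G6pdx* rose in GRf/f mice from 9.51 to 22.5 CPM (1.2) and stood at 15.8 and 14.8 CPM in GRmKO mice (-0.09). *Me1*, encoding malic enzyme, rose in liver of GRf/f mice from 117 to 344 CPM (1.55) and stood at 165 and 319 CPM in GRmKO mice (0.94).

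Of the 9 detoxification and export genes, *Cbr1*, a carbonyl reductase, rose with CORT in liver of both genotypes, from 35.2 to 189 CPM (2.41) and from 55.7 to 208 CPM (1.89). *Abcc3*, an export pump of liver cells, fell there in GRf/f mice from 151 to 66.8 CPM (-1.17), and its change in GRmKO mice was -0.60. *Ptgr1*, a reductase of reactive lipids, rose in gonadal WAT of both genotypes, from 7.47 to 19.9 CPM (1.36) and from 6.43 to 16.7 CPM (1.31). None of the 5 haem and iron genes and none of the 4 superoxide and peroxide enzymes reached 2-fold with CORT in any tissue or genotype. *Blvrb*, a haem and iron gene, came near in GRf/f gastrocnemius, at 4.54 CPM with vehicle and 2.08 CPM with CORT. It stayed short of 2-fold only because 0.5 CPM was added to each level.

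**Figure D4:**
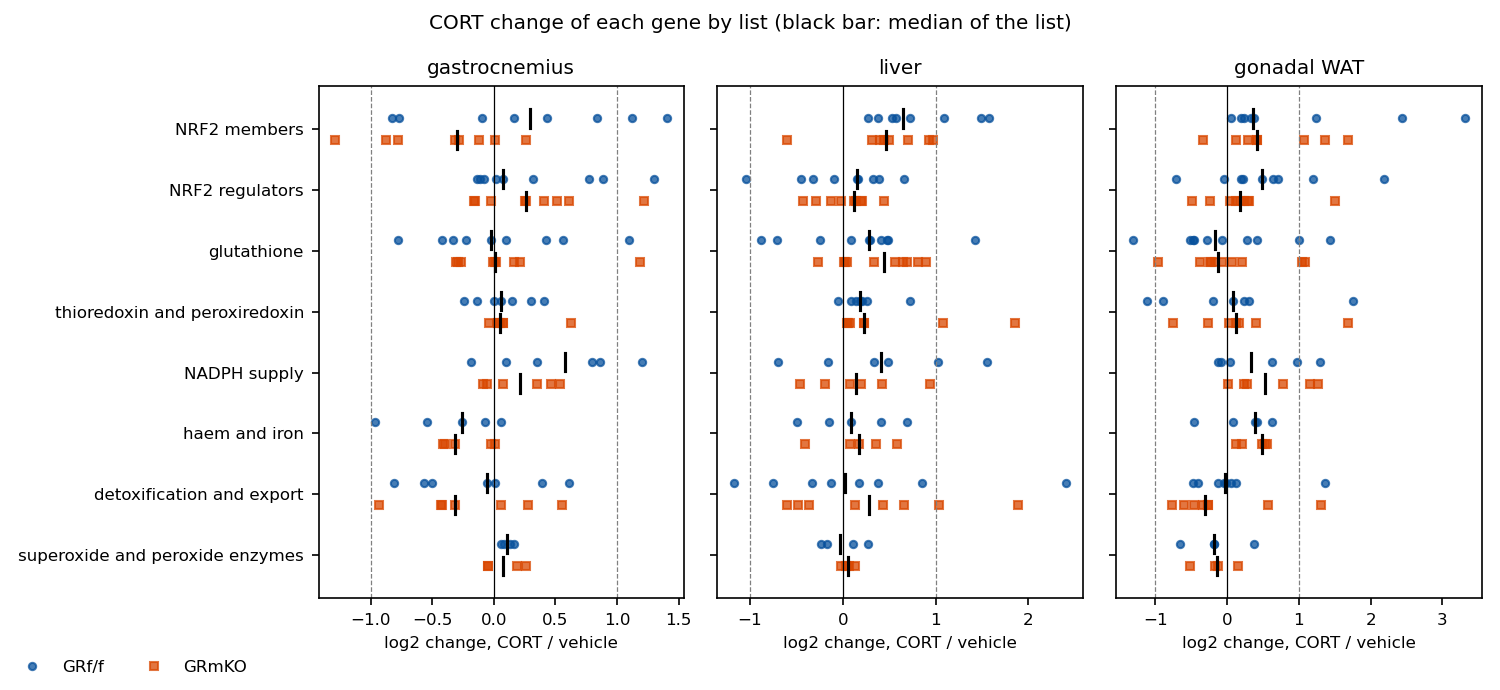
Log2 change with CORT (horizontal axis) of each tested gene of the 8 members and the 7 further lists (rows), in GRf/f (circles) and GRmKO mice (squares), with the median of each list as a black bar and 2-fold as dashed lines. In gastrocnemius the median of the members was 0.29 in GRf/f and -0.30 in GRmKO mice, and in gonadal WAT 0.35 and 0.41.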

How the data were processed

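Pooled RNA (3 mice per pool, cut-offs of RIN 7 and OD ratio 1.8) was sequenced by the study as 100-base paired reads on a DNBSEQ-G400. The authors quantified protein-coding transcripts of GENCODE M20 (GRCm38) with Salmon 1.2.1 and deposited expected counts scaled by transcript length (tximport in R 3.5.0). For symbols with several entries they kept the largest, so each gene bears 1 transcript identifier, and whether its counts had been summed over the gene was not settled. Counts of a gene with several transcripts can therefore depend on that choice.

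The expected counts, rounded to whole numbers for the intervals, were divided by the library total (CPM) with Python 3.11.15, pandas 2.3.3 and scipy 1.17.1. A pseudocount of 0.5 CPM was used for log2 changes, and genes had to be above 0 in all 4 libraries of a tissue. With 1 library per group no test or p-value is given, and a fixed 2-fold change replaced the simulation-based calls of the study. The calculation was tested on simulated data. Alternatives were TMM factors (edgeR 4.0.16), median-of-ratios factors, pseudocounts of 0.1 and 1 CPM, no filter, a mean of at least 1 CPM, and a fold of 1.5.

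The 8 members and all lists were chosen with earlier results of these data known. The named pathway genes were, in each tissue, at most the 6 with the largest change of at least 2-fold in any comparison and a mean of at least 5 CPM, and the genes like *Osgin1* were the 5 with the highest correlation among those with the same transcript in all tissues and at least 5 CPM in each. The difference between genotypes in the change with CORT was added after the data were seen. Gene positions came from GENCODE M21 on GRCm38.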

Additional observations from a re-analysis of the deposited data

Results flagged for a closer look

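Each result below is a change with CORT whose sign differed between genotypes or tissues, with counting intervals on opposite sides of 0 and a gap of at least 1 on the log2 scale. None of these differences was tested, since each group is 1 library. Between genotypes, *Osgin1* in gastrocnemius changed by 1.12 in GRf/f and -1.29 in GRmKO mice, and *Hmox1* in liver by 0.73 and -0.60. Between tissues of GRf/f mice, *Nqo1* changed by -0.83 in gastrocnemius and 1.09 in liver, and *Gclm* by -0.77 in gastrocnemius against 0.38 in liver and 0.24 in gonadal WAT. Between tissues of GRmKO mice, the log2 change of *Osgin1* was -1.29 in gastrocnemius, against 0.97 in liver and 1.37 in gonadal WAT, and that of *Nqo1* was -0.78, 0.50 and 0.41. *Hmox1* in GRmKO mice changed by -0.88 in gastrocnemius and -0.60 in liver against 1.69 in gonadal WAT. *Nfe2l2* in GRmKO mice changed by 0.93 in liver against -0.12 in gastrocnemius and -0.34 in gonadal WAT, and its sign in gastrocnemius depended on the scaling. The tissue comparisons set separately normalised tables side by side.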

How the results depend on the processing

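Of 105 recomputed counts of members, 92 kept their value within 1.5 times. The settings with no filter and with a mean of at least 1 CPM could not change them, since every member passed both filters. With a fold of 1.5 in place of 2, the counts in gastrocnemius became 5 with CORT in GRf/f, 3 with CORT in GRmKO, 2 between genotypes under vehicle, 5 under CORT and 5 for the difference in the change with CORT, where 22.6%, 18.9%, 24.0%, 27.7% and 27.9% of all genes passed. In liver they became 4 with CORT in GRmKO, 1 between genotypes under vehicle, 1 under CORT and 3 for the difference (17.7%, 9.92%, 16.5% and 26.1% of all genes), and in gonadal WAT 1 under vehicle and 2 for the difference (9.67% and 22.2%). With TMM and with median-of-ratios factors, the count between genotypes under CORT in liver became 1 (*Hmox1*). With a pseudocount of 1 CPM the count with CORT in GRf/f liver was 2 in place of 3, without *Nqo1*. Of 384 recomputed log2 changes, 14 left their counting interval and 3 changed sign, those of *Hmox1* with CORT in GRf/f gastrocnemius (0.01 with median-of-ratios) and of *Nfe2l2* with CORT in GRmKO gastrocnemius (0.03 with TMM, 0.02 with median-of-ratios). Of 84 counts over all genes, 34 moved by more than 1.5 times. No paired analysis was possible because each group is 1 pooled library, and for the same reason no library could be left out. The fewest counts behind a member were 66.0 for *Nqo1* in GRf/f vehicle liver and 97.0 for *Osgin1* in GRf/f vehicle WAT, on which its largest change rests, and the spread between mice is not measured.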
